A study of Homo sapiens with 4 samples.

Results

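The cytosolic ribosomal protein genes are the genes whose products, with the ribosomal RNAs, build the small and the large subunit of the ribosome that translates messages in the cytosol. Members were taken by symbol (RPL or RPS with a number, plus RPLP0, RPLP1, RPLP2 and RPSA), which gave 84 of the 33538 genes in the count matrix. Of these, 32 belong to the small subunit and 52 to the large one, and 7 are paralogs of another member: RPL22L1, RPL7L1, RPL26L1, RPL39L, RPL3L, RPL10L and RPS27L. FAU, which encodes a ribosomal protein fused to a ubiquitin-like sequence, does not have such a symbol and was counted with the other translation genes.

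The genes were followed in BT474, an established human breast cancer line with estrogen receptor and amplified HER2, by single-cell RNA-seq after 4 h of treatment. There was a library from cells given both fulvestrant (100 nM) and neratinib (200 nM), another from cells given neratinib alone (200 nM), another from cells given fulvestrant alone (100 nM) and another from cells given DMSO, the vehicle. Fulvestrant blocks the estrogen receptor and causes its breakdown, and neratinib is a covalent inhibitor of the HER2 kinase and its relatives. Each group was 1 library of 1 cell line, so no difference was tested and none has a replicate check.

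Ribosomal proteins are made in near equal numbers, and most of their genes are read at high and steady rates in growing cells. Their messages usually begin with a C followed by a run of pyrimidines, the 5′ terminal oligopyrimidine or TOP motif, through which mTOR signalling sets how well they are translated. Growth signalling through receptors such as HER2 acts on this translation and, with MYC, on the transcription of factors that assemble ribosomes. RPL5 and RPL11 also have a duty outside the ribosome, as they bind MDM2 and so hold back the loss of p53. RPS6 is the classical substrate of the S6 kinases. Some members have a second copy whose use depends on the tissue: in mice RPL10L and RPL39L are known from the testis, and RPL3L from heart and skeletal muscle.

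The starts of the messages are shown first, because the TOP motif is what the members share in sequence and because it sets several paralogs apart from their parent genes. Each line gives the 30 bases that run from 10 before to 20 from an annotated start in RefSeq (GRCh38.p14), on the strand of the gene. Capitals mark a pyrimidine run of at least 5 bases that begins with C within 5 bases of the start.
RPS3, chr11:75399508-75399537 (+): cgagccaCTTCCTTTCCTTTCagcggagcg
RPL7A, chr9:133348208-133348237 (+): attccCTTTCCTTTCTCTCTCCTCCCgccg
RPL19, chr17:39200313-39200342 (+): agctctttCCTTTCgctgctgcggccgcag
RPL39, chrX:119791611-119791640 (-): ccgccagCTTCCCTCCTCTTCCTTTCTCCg
RPL22, chr1:6199576-6199605 (-): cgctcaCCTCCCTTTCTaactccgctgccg
RPL22L1, chr3:170870176-170870205 (-): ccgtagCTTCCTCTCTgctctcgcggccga
RPL26, chr17:8383174-8383203 (-): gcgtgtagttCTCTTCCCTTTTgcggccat
RPL26L1, chr5:172958719-172958748 (+): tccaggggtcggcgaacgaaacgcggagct
RPS27, chr1:153990752-153990781 (+): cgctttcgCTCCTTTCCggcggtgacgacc
RPS27L, chr15:63157458-63157487 (-): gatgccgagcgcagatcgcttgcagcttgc
RPL7L1, chr6:42879606-42879635 (+): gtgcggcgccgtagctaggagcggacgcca
RPS26, chr12:56041908-56041937 (+): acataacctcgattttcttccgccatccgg
RPS3, RPL7A, RPL19 and RPL39 stand for abundant members with such a run, and RPL22, RPL26 and RPS27 stand beside their paralogs. RPL22L1 kept a run like that of its parent RPL22, while no run met the rule in RPL26L1, RPS27L or RPL7L1. RPS26, a core member of the small subunit, also had none by this rule. Its window holds the stretch cttcc, which begins just past the 5-base limit.

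Sequence around the start was found for 67 of the 84 members. A run as defined above, on the sense strand, stood in at least 1 start of 54 of these 67 genes (80.6%), against 25.2% of the 27305 genes in the whole table. Counted over starts, it was 69.9% of 83 starts of members and 21.1% of all 35116. The exact letters CTTTC, part of many TOP motifs and overlapping the run where both occur, were in the window of 33 of the 67 genes (49.3%), against 5.29% of all genes. These matches describe the letters at annotated starts and are no measurement of where transcription began in these cells.

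The 4 libraries were sequenced to similar depth, and the cells were those with at least 5000 UMIs (unique molecular identifiers, each counting 1 captured RNA molecule) and at least 500 genes. That left 3876 cells with both drugs, 3507 with neratinib, 3485 with fulvestrant and 4301 with DMSO, holding 82967775 to 102504452 UMIs in a library. Across libraries the median cell had 22007 to 23010 UMIs and 4184 to 4510 genes, and 23 barcode sequences were kept in more than 1 library. Mitochondrial transcripts took 21.5% of UMIs with both drugs and 21.5% with neratinib, against 17.3% with fulvestrant and 16.7% with DMSO. FOS, an immediate early gene of ERK signalling, was at 2.25 CPM (counts per 1000000 UMIs) with both drugs and 2.29 with neratinib, against 41.8 with fulvestrant and 40.2 with DMSO. PGR, an estrogen receptor target, was at 93.3 CPM with both drugs, 173 with neratinib, 81.5 with fulvestrant and 143 with DMSO. All 8 markers of BT474 cells were measured, 0 of 4 immune markers reached 1 CPM, and COL1A1 and VWF were the only fibroblast or endothelial markers to do so, with each of these lists summing to at most 12.4 CPM in any library.

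Ribosomal protein messages made up 21.1% of UMIs with both drugs, 21.2% with neratinib, 19.7% with fulvestrant and 19.99% with DMSO. Of the UMIs that were not mitochondrial, they were 26.8% with both drugs, 27.0% with neratinib, 23.8% with fulvestrant and 23.99% with DMSO. The neratinib libraries were thus the higher pair and the others the lower pair on both scales. The median cell told the same order, with 27.2% of non-mitochondrial UMIs (quartiles 24.5 and 30.04) with both drugs and 27.4% (24.6 and 30.4) with neratinib. It had 24.2% (21.6 and 26.9) with fulvestrant and 24.3% (21.8 and 27.0) with DMSO, so the upper quartile of the cells without neratinib lay below the median of the cells with it. Barcodes with 10 to 100 UMIs, which hold mostly free RNA, had 31.3% with both drugs, 29.95% with neratinib, 26.7% with fulvestrant and 25.4% with DMSO. There too the neratinib libraries were above the others, but the order within each of these pairs was the reverse of that in cells.

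The share also moved with the mitochondrial share of a cell. Among cells with 15 to 20% mitochondrial UMIs, members took 26.2% of the other UMIs with both drugs, 26.4% with neratinib, 24.1% with fulvestrant and 24.3% with DMSO. In the bin from 20 to 25% the shares were 27.2% with both drugs, 27.5% with neratinib, 25.2% with fulvestrant and 24.9% with DMSO. In these bins the neratinib libraries were above the others by a smaller difference than over all cells. Above 25%, where the other libraries had few cells, the difference was larger, with 27.6% in 669 cells with both drugs, 27.6% in 567 with neratinib, 19.2% in 180 with fulvestrant and 21.5% in 170 with DMSO.

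A few genes carried much of that mass. Since 1 UMI marks 1 message whatever its length, levels were compared between genes in CPM without a length correction. RPL19, a large-subunit protein, was the highest member, with 35641 CPM in both drugs, 36182 in neratinib, 34178 in fulvestrant and 34138 in DMSO. It alone gave 16.9 to 17.3% of all member UMIs. The next by mean level were RPL23, another large-subunit protein, with 8463 CPM in both drugs, 8170 in neratinib, 8394 in fulvestrant and 8579 in DMSO, and RPS3, which lines the mRNA entry channel of the small subunit. RPL19 lies on chromosome 17 with 10 protein-coding genes between it and ERBB2, the gene of HER2, and RPL23 lies on the same chromosome with 17 between. The other 4 members on chromosome 17 were separated from ERBB2 by 141 to 447 genes: RPL27, RPL23A, RPL26 and RPL38. RPL23A had 2302 CPM in DMSO, and RPL27, RPL26 and RPL38 had 795, 737 and 380 CPM there.

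At the other end, RPL3L and RPL10L were close to absent. RPL3L had 1 UMI with both drugs, 0 with neratinib, 1 with fulvestrant and 3 with DMSO, and RPL10L had 6 with both drugs, 1 with neratinib, 8 with fulvestrant and 3 with DMSO. No ratio is given for these paralogs, which were below 1 CPM, while the other 82 members were all above 20 CPM on average and are called measured. RPL22L1 (59.6 CPM on average) and RPL36A (61.9) were among the lowest of the measured members. RPS10, RPL17 and RPL36A overlap readthrough genes in the annotation, and the readthrough genes themselves held 0.167 CPM or less in every library. The sources used here do not give how reads shared with pseudogenes or near-identical copies were counted, so the levels of members with many such copies are uncertain.

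Neratinib was read in 2 pairs that share no library: neratinib against DMSO, and both drugs against fulvestrant. In both, most members were slightly higher in the neratinib library while most other genes were lower. The median log2 ratio of the 82 measured members was 0.06 for neratinib over DMSO, against -0.16 for all 12136 genes with a mean of at least 1 CPM. For both drugs over fulvestrant the medians were 0.09 and -0.15. Summed over members, the log2 ratio was 0.087 for neratinib over DMSO and 0.096 for both drugs over fulvestrant. A gene was called higher or lower when its log2 ratio was at least 0.32 in size with a 95% counting interval off 0, which covers counting error and not variation between cultures. By this rule 0 members were higher and 4 lower with neratinib against DMSO, where 13.6% of all measured genes were called higher and 33.3% lower. For both drugs against fulvestrant 0 members were higher and 3 lower, where 13.8% of all genes were higher and 32.4% lower.

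The split depended on how the libraries were scaled, because the median gene lay 0.16 or 0.15 below 0 in these pairs. With libraries scaled to their median gene (median of ratios), 11 members were higher and 3 lower for neratinib against DMSO, where 21.2% of all genes were called higher and 20.6% lower. Among the 11 were RPS3, RPS2, RPS27L, RPS4X, RPL17, RPS9, RPL7A, RPL10, RPS6 and RPL10A. For both drugs against fulvestrant the same scaling gave 4 higher and 2 lower members, where 21.6% of all genes were higher and 20.8% lower. Against DMSO, both drugs gave 0 higher and 3 lower members by total counts, where 14.9% of all genes were higher and 33.3% lower. Scaled to the median gene it was 8 higher and 3 lower, where 22.9% of all genes were higher and 21.9% lower. The pair of both drugs against DMSO shares its libraries with the pairs above and adds no separate reading.

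**Figure D1:**
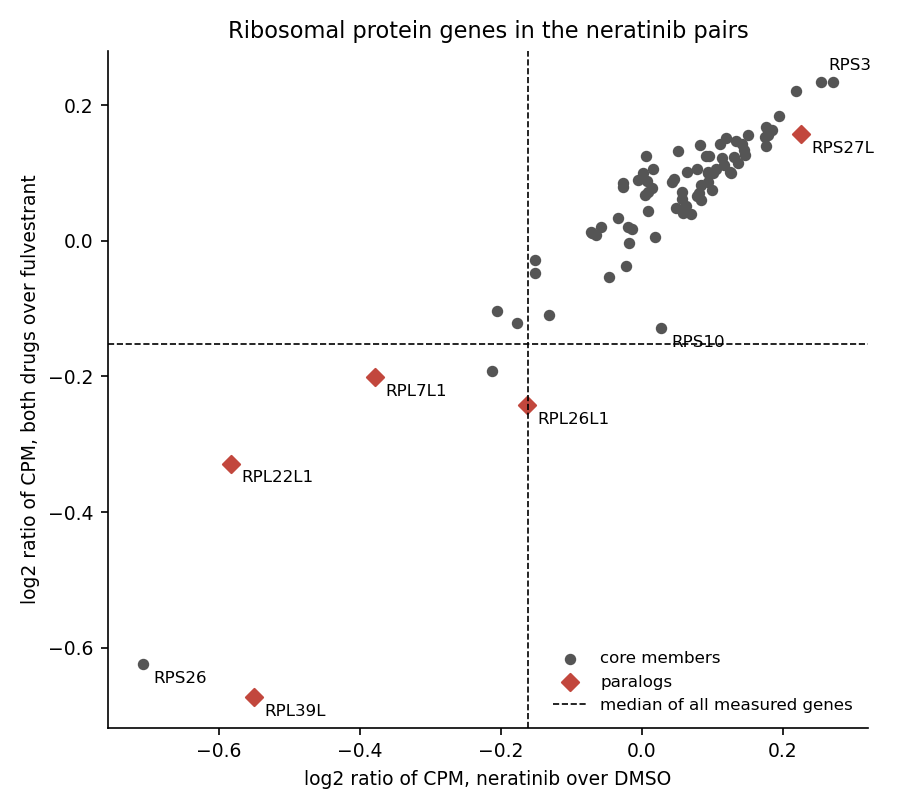
Log2 ratio of CPM of the 82 measured members for neratinib over DMSO (horizontal) and both drugs over fulvestrant (vertical), with core members as dots and paralogs as diamonds. Dashed lines mark the median of all measured genes (-0.16 and -0.15); most members lie above both lines, and RPS26, RPL39L, RPL22L1 and RPL7L1 lie far below the rest.

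Members with the highest ratios sat in the small subunit. RPS3 had 8939 CPM with both drugs, 9065 with neratinib, 7603 with fulvestrant and 7509 with DMSO, a log2 ratio of 0.27 for neratinib over DMSO and 0.23 for both drugs over fulvestrant. RPS2, which shapes the mRNA entry side of the subunit, had 8798 CPM with both drugs, 8819 with neratinib, 7477 with fulvestrant and 7397 with DMSO. Its log2 ratios were 0.25 and 0.23 in the same pairs. For each of these genes both neratinib libraries were above both others, by less than the size that the rule asks for. RPS6, the S6 kinase substrate, had 1533 CPM with both drugs and 1530 with neratinib, against 1365 with fulvestrant and 1355 with DMSO. RPSA, which is also known as the precursor of a laminin receptor, was at 1582 CPM with both drugs, 1589 with neratinib, 1421 with fulvestrant and 1431 with DMSO.

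The subunits had like medians. The 50 measured members of the large one had a median log2 ratio of 0.06 for neratinib over DMSO. Of these, 33 were above 0 and 17 below. The 32 of the small subunit had 0.07, with 25 above and 7 below. Of all 12136 measured genes, 4065 were above 0 and 8071 below. RPL5 and RPL11, the MDM2-binding pair, had log2 ratios of 0.07 and 0.08 for neratinib over DMSO and 0.04 and 0.07 for both drugs over fulvestrant. Among the stalk proteins, which recruit translation factors, RPLP0 was at 0.13, RPLP1 at 0.12 and RPLP2 at 0.02 for neratinib over DMSO. RPL23 differed in sign, at -0.07 for neratinib over DMSO and 0.01 for both drugs over fulvestrant, and RPL19 was at 0.08 and 0.06. Scaled to the median gene, 45 members of the large subunit were above 0 and 5 below for neratinib over DMSO. For the small subunit it was 30 and 2, and for all measured genes 6096 and 6040.

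RPS26 was the core member that departed most. It is a small-subunit protein at the exit of the mRNA channel, and its gene is mutated in some families with Diamond-Blackfan anemia. It had 338 CPM with both drugs, 343 with neratinib, 521 with fulvestrant and 559 with DMSO. The neratinib libraries lay well apart from the others and close to each other. The log2 ratio was -0.71 (95% counting interval -0.73 to -0.69) for neratinib over DMSO and -0.62 (-0.65 to -0.60) for both drugs over fulvestrant, which is 1.63-fold and 1.54-fold lower. In single cells the median was 3.13 UMIs per 10000 with both drugs and 3.16 with neratinib, against 4.98 with fulvestrant and 5.37 with DMSO. The upper quartile with neratinib (4.30) was close to the lower quartile with DMSO (4.04), so the shift ran through the bulk of cells. Set against the members' own sum, cells with 15 to 20% mitochondrial UMIs had 0.173% of member UMIs on RPS26 with both drugs, 0.176% with neratinib, 0.260% with fulvestrant and 0.276% with DMSO. The order of the neratinib libraries against the others was the same in each of 4 bins above 10% mitochondrial UMIs, and its log2 ratio for neratinib over DMSO was -0.80 in G1, -0.73 in S and -0.57 in G2M cells.

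Below RPS26 came a group of core members that were lower in both neratinib libraries without reaching the rule. RPL31 had 229 CPM with both drugs, 223 with neratinib, 246 with fulvestrant and 257 with DMSO, log2 ratios of -0.21 for neratinib over DMSO and -0.10 for both drugs over fulvestrant. Both neratinib libraries were below both others. The ratio for neratinib over DMSO was below the median of all genes (-0.16), while that for both drugs over fulvestrant was above it (-0.15). RPL35 had 2256 CPM with both drugs, 2274 with neratinib, 2332 with fulvestrant and 2524 with DMSO, and RPL27 had 705 CPM with both drugs, 726 with neratinib, 761 with fulvestrant and 795 with DMSO. RPL24 was at 1160 CPM with both drugs, 1173 with neratinib, 1204 with fulvestrant and 1211 with DMSO. These abundant large-subunit genes ran against the direction of most members, by log2 ratios of -0.15, -0.13 and -0.05 for neratinib over DMSO. Scaled to the median gene, the ratios of RPL35, RPL27 and RPL24 for that pair lie above 0.

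The paralogs did not move as a family. RPL39L, the paralog of the exit tunnel protein RPL39, had 99.8 CPM with both drugs, 106 with neratinib, 159 with fulvestrant and 155 with DMSO, log2 ratios of -0.55 (neratinib over DMSO) and -0.67 (both drugs over fulvestrant). Its parent RPL39 was at 1276 CPM with both drugs, 1285 with neratinib, 1190 with fulvestrant and 1284 with DMSO, log2 ratios of 0.00 and 0.10. RPL39L thus separated the neratinib libraries from the others, and RPL39 did not.

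RPL22L1, the paralog of the RNA-binding large-subunit protein RPL22, had 50.5 CPM with both drugs, 49.8 with neratinib, 63.4 with fulvestrant and 74.6 with DMSO. Here the fulvestrant library lay between the neratinib libraries and DMSO. The log2 ratio was -0.58 (interval -0.64 to -0.53) for neratinib over DMSO, -0.33 (-0.39 to -0.27) for both drugs over fulvestrant and -0.23 (-0.28 to -0.18) for fulvestrant over DMSO. RPL22 itself was at 1011 CPM with both drugs, 1037 with neratinib, 943 with fulvestrant and 968 with DMSO, so parent and paralog lay on opposite sides of 0 in both neratinib pairs. With both drugs against fulvestrant, RPL22L1 passed the rule by a small margin, kept the call under 3 of 9 alternatives and was at -0.08 in G1 cells, -0.27 in S cells and -0.70 in G2M cells. For neratinib over DMSO it was -0.40 in G1, -0.51 in S and -0.83 in G2M cells.

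RPL7L1, the paralog of RPL7, had 119 CPM with both drugs, 113 with neratinib, 136 with fulvestrant and 146 with DMSO. It was called lower in neratinib against DMSO (log2 ratio -0.38) and not in both drugs against fulvestrant (-0.20), and scaling to the median gene ended the first call, at -0.21. RPL7 was at 0.01 and 0.07. RPL26L1 had 67.5 CPM with both drugs, 70.1 with neratinib, 79.8 with fulvestrant and 78.4 with DMSO, ratios of -0.16 and -0.24 that did not reach the rule, with its parent RPL26 at -0.02 and -0.04. RPS27L was the paralog on the high side. This p53 target gene had 139 CPM with both drugs, 142 with neratinib, 125 with fulvestrant and 121 with DMSO, log2 ratios of 0.23 and 0.16, and its parent RPS27 was at 0.05 and 0.13.

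**Figure D2:**
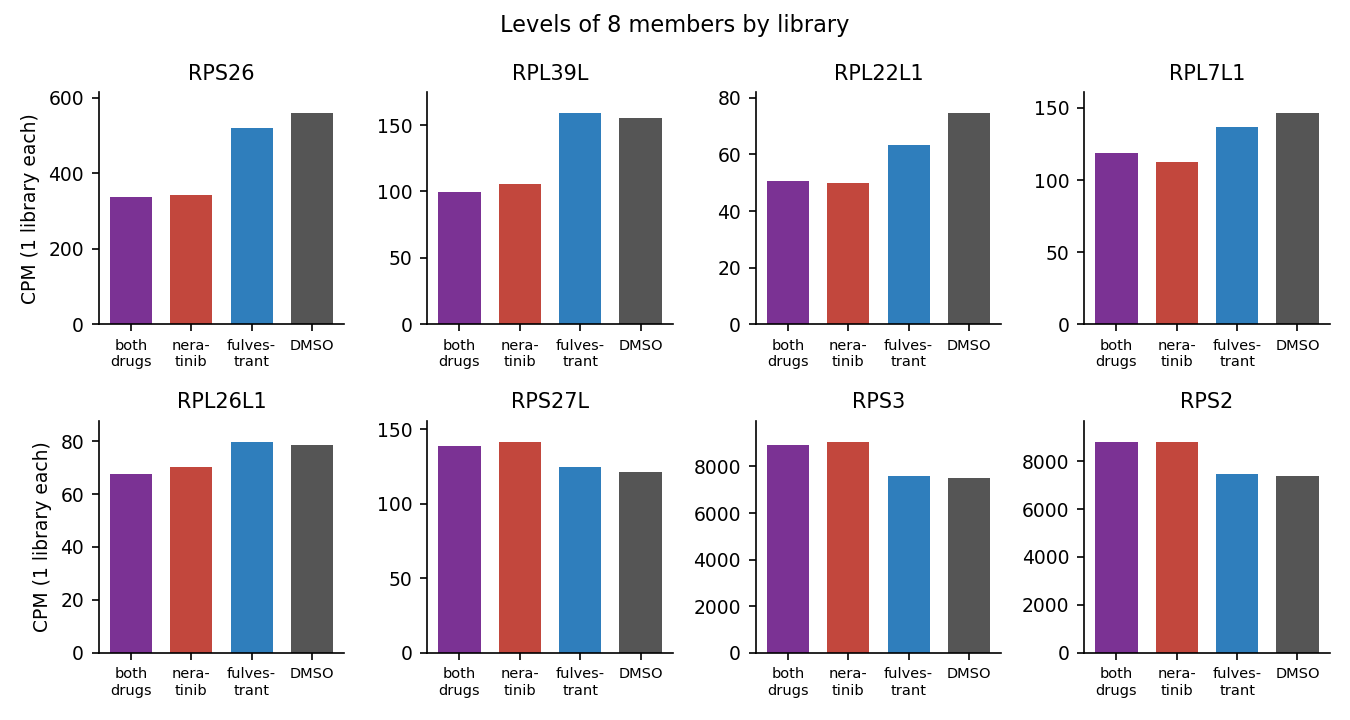
CPM of 8 members in the 4 libraries, 1 bar per library (both drugs, neratinib, fulvestrant, DMSO), each panel on its own axis from 0. RPS26 stands at 338 and 343 CPM with both drugs and neratinib and at 521 and 559 with fulvestrant and DMSO; RPL39L, RPL22L1, RPL7L1 and RPL26L1 are also lower in both neratinib libraries, and RPS27L, RPS3 and RPS2 are higher.

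Genes of neighbouring pathways are set beside the members, as counts by the same rule. Of 20 ribosome assembly genes, 0 were higher and 17 lower for neratinib against DMSO (median log2 ratio -0.81), and 0 were higher and 16 lower for both drugs against fulvestrant (-0.55). RRS1, an assembly factor of the large subunit, had 6.94 CPM with both drugs, 10.1 with neratinib, 24.7 with fulvestrant and 40.7 with DMSO. Of 77 measured mitochondrial ribosomal protein genes, whose products build the separate ribosome of mitochondria, 2 were higher and 32 lower for neratinib against DMSO (-0.30), and 2 and 34 for both drugs against fulvestrant (-0.28). Of 19 measured other translation genes, 0 were higher and 0 lower for neratinib against DMSO, with a median of 0.12. For both drugs against fulvestrant 2 were higher and 0 lower, also with 0.12. Among all measured genes, total counts gave 13.6% higher and 33.3% lower in the first pair, with a median log2 ratio of -0.16. In the second pair they gave 13.8% and 32.4%, with a median of -0.15. The counts in these lists too moved with the scaling. Scaled to the median gene, 3 mitochondrial genes were higher and 19 lower in the first pair, and 4 and 14 in the second. Of all genes, 21.2% were then higher and 20.6% lower, and 21.6% and 20.8%. In the same order the assembly genes had 0 and 15, then 0 and 13. The other translation genes had 7 and 0, then 6 and 0. The elongation factor EEF1A1 was at 5569 CPM with both drugs, 5595 with neratinib, 4803 with fulvestrant and 4728 with DMSO, and the elongation factor EEF2 was at 0.32 and 0.33 in the 2 pairs. Among all genes of at least 500 CPM, which compare members with genes of like level, the 69 members had a median of 0.08 for neratinib over DMSO and 140 other genes had -0.09.

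Fulvestrant was likewise read in 2 pairs, fulvestrant against DMSO and both drugs against neratinib. No member was called in either: 0 were higher and 0 lower for fulvestrant against DMSO, where 1.23% of all genes were higher and 1.80% lower. For both drugs against neratinib it was again 0 and 0, where 1.57% were higher and 2.00% lower. The summed log2 ratios were -0.020 and -0.011, and the medians -0.03 and -0.01, against 0.00 and 0.01 for all genes. Of the ribosome assembly genes, 0 were higher and 6 lower for fulvestrant against DMSO, with a median of -0.25, and 0 and 1 for both drugs against neratinib. The members highest for fulvestrant over DMSO were RPL17 at 0.10 and RPS27L at 0.04, and the lowest were RPL22L1 at -0.23, RPL36A at -0.20 and RPS21 at -0.17. RPS10 was the lowest for both drugs over neratinib, at -0.24, with 122 CPM with both drugs, 144 with neratinib, 133 with fulvestrant and 141 with DMSO.

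Within this narrow range the ratio for fulvestrant over DMSO rose with the coding length of the member. Over the 77 core members, Spearman's rho between coding length and the log2 ratio of fulvestrant over DMSO was 0.78, and over all 82 measured members it was 0.62. The 28 shortest members, with 75 to 399 coding bases, had a median of -0.09, with 25 below 0. The 28 longest, with 564 to 1281 coding bases, had a median of 0.01, with 19 above 0. RPL41, which encodes the shortest protein of the ribosome (75 coding bases), was at 2820 CPM with both drugs, 2912 with neratinib, 2803 with fulvestrant and 3047 with DMSO, a log2 ratio of -0.12 for fulvestrant over DMSO. RPL3, a long member near the catalytic centre (1209 coding bases), was at 0.01. Among 371 other genes of at least 200 CPM in the same range of lengths, rho was 0.11, against 0.82 over the 73 core members of that level. Over the 77 core members rho was 0.29 for both drugs over neratinib, 0.64 for neratinib over DMSO and 0.37 for both drugs over fulvestrant. The pairs with the higher values for coding length share the DMSO library, and the pairs without it had the lower ones. With mean CPM in place of coding length, rho over the core members was 0.39 for fulvestrant over DMSO and 0.53 for neratinib over DMSO. It was 0.46 for both drugs over fulvestrant, above the value for coding length, and 0.13 for both drugs over neratinib. With transcript length it was 0.25 for fulvestrant over DMSO. These correlations are across genes that share the same libraries, so they carry no p-value and describe these libraries alone.

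**Figure D3:**
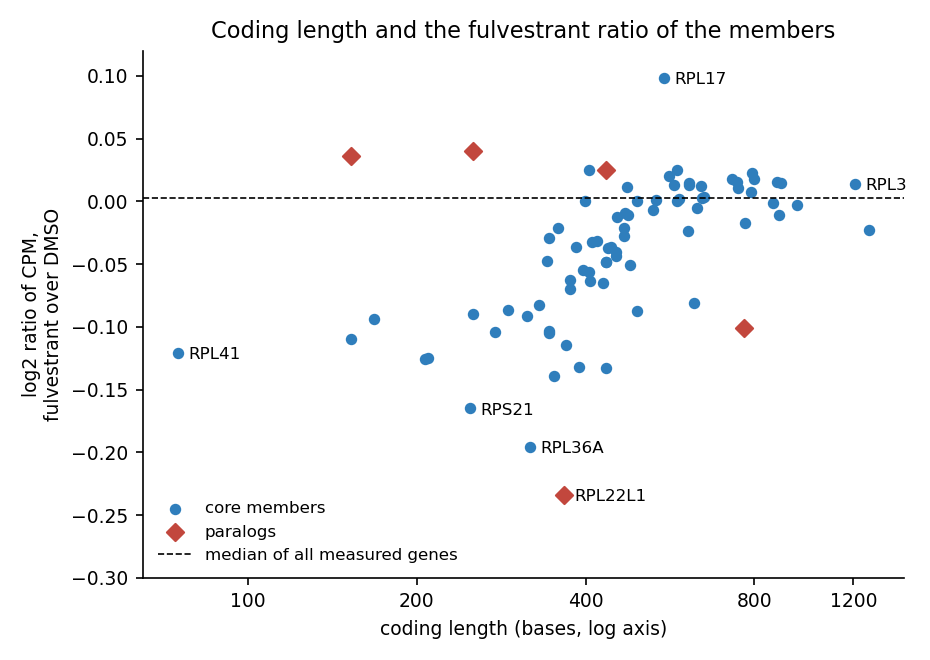
Log2 ratio of CPM for fulvestrant over DMSO against coding length (log axis) for the 82 measured members, core members as dots and paralogs as diamonds; the dashed line is the median of all measured genes (0.00). Short members such as RPL41 (-0.12), RPS21 (-0.17) and RPL36A (-0.20) lie below 0, and most members of 564 or more coding bases lie close to 0.01.

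The pyrimidine run, as defined by its distance from the annotated start, did not separate the ratios in a similar way. Some members without a run by this rule, such as RPS26, RPL9, RPL15, RPL27 and RPS15, hold a pyrimidine stretch farther into the window. The split thus does not part TOP messages from others, and whether the motif itself goes with the ratios was not tested. The 54 measured members with a run had a median log2 ratio of 0.08 for neratinib over DMSO and the 12 without one had 0.05. For fulvestrant over DMSO the medians were -0.04 with a run and 0.00 without one. RPL22L1, with a run, and RPS26, without one by the rule, were both among the members called lower with neratinib.

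The share of member UMIs also differed between cells of different cycle phase, assigned from S and G2M marker genes. In G1 cells the members made up 28.4% of non-mitochondrial UMIs with both drugs, 28.9% with neratinib, 25.7% with fulvestrant and 25.9% with DMSO. In S cells it was 26.3% with both drugs, 26.5% with neratinib, 22.8% with fulvestrant and 22.8% with DMSO. In G2M cells it was 24.8% with both drugs, 24.8% with neratinib, 22.1% with fulvestrant and 22.3% with DMSO. The order from G1 to G2M held in every library, and in every phase the neratinib libraries were above the others. G2M cells also held more UMIs, with medians of 30897 to 31595 against 19618 to 20321 in G1 cells. Phase calls were not checked against DNA content.

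**Figure D4:**
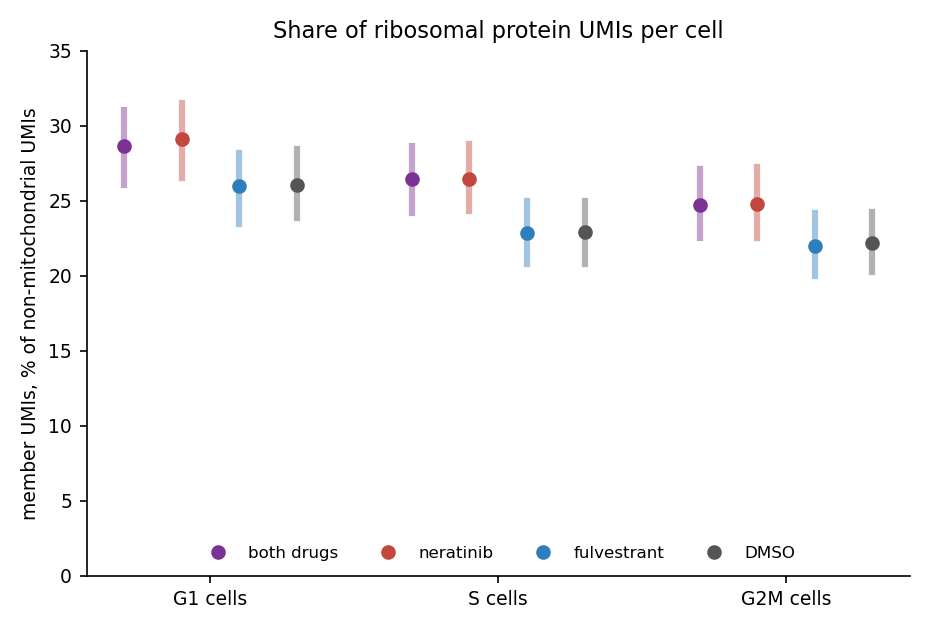
Member UMIs as a percentage of non-mitochondrial UMIs per cell, by phase and library (from left both drugs, neratinib, fulvestrant, DMSO); dots are medians over cells and bars run from the lower to the upper quartile. The share is highest in G1 cells and lowest in G2M cells in every library, and in each phase both neratinib libraries stand above fulvestrant and DMSO.

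Most members took part in that decline. With both drugs, 75 of 82 members had a log2 ratio below 0 for G2M over G1 cells, with a median of -0.13, against -0.09 for all genes. With DMSO it was 74 of 82, with a median of -0.18, against -0.05 for all genes. The all-gene medians were thus also below 0, and the share of all genes below 0 was not counted. For S over G1 cells the members' median was -0.07 with both drugs and -0.08 with neratinib, against -0.10 for all genes in each. With fulvestrant and DMSO it was -0.14 and -0.15, against -0.06 for all genes in each. RPL39L went against the decline from G1 to G2M by far the most. It had 57.1 CPM in G1, 120 in S and 151 in G2M cells with both drugs, and 59.3, 126 and 157 CPM in the same phases with neratinib. With fulvestrant it had 85.8, 206 and 227 CPM, and with DMSO 83.8, 202 and 217 CPM. Its log2 ratio of G2M over G1 was 1.41 with both drugs, 1.41 with neratinib, 1.40 with fulvestrant and 1.37 with DMSO, so the cycle pattern was of like size in the 4 libraries while the level was lower in both neratinib libraries. RPL22L1 differed in this: G2M over G1 was -0.16 with both drugs and -0.02 with neratinib, against 0.46 with fulvestrant and 0.40 with DMSO. RPL41 was a core member above 0 in every library, between 0.16 and 0.18 for G2M over G1. Nearby values within a phase rest on fewer UMIs than the totals do.

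Across the cells of 1 library, most members followed the sum of the others. Pearson's r, averaged over the 4 libraries, was highest for RPL19 (0.90), RPL13 (0.86) and RPS14 (0.84). It was lowest for the paralogs RPL39L (-0.01), RPL7L1 (0.01) and RPS27L (0.07), and also 0.07 for RPS21, a small-subunit protein. Counting noise lowers r for genes of few UMIs, so genes of like level are the better guide. RPS26, with 440 CPM on average, had an r of 0.25, and RPS29, with 446 CPM, had 0.49. RPS21 stood lower still at 599 CPM. With cells thinned to 5000 UMIs, the variance of RPS21 over its mean was 1.05 to 1.11 in the libraries, near the value of 1 for pure counting noise, and that of RPS29 was 1.14 to 1.19. In sparse counts such weak correlations are descriptions and no finding.

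**Figure D5:**
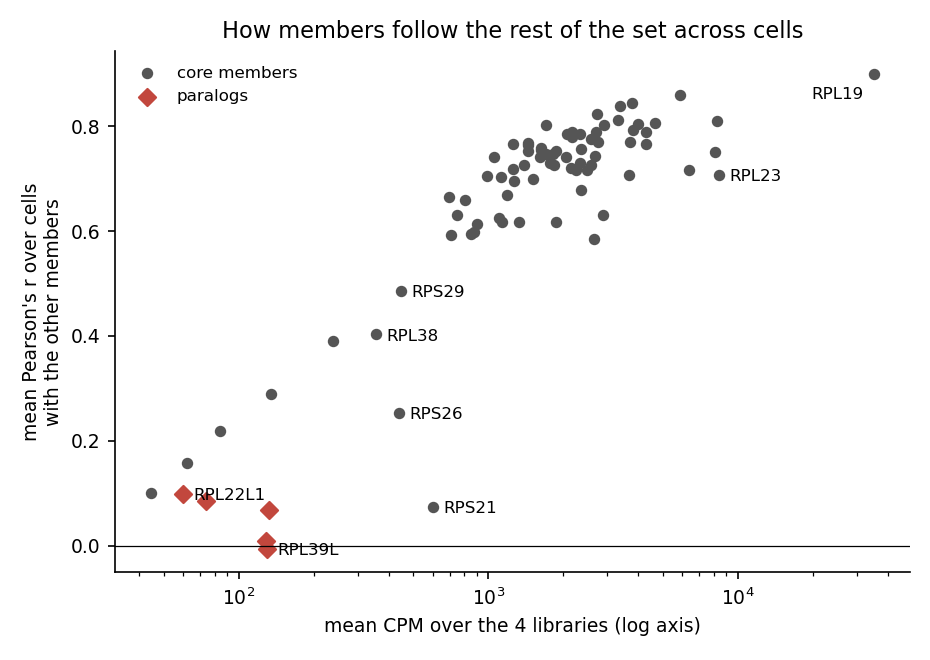
Mean over the 4 libraries of Pearson's r across cells between a member and the sum of the other members, against the member's mean CPM (log axis), core members as dots and paralogs as diamonds. RPL19 is at the top (0.90), most members more abundant than RPS21 lie between 0.59 and 0.86, and RPS21 (0.07) and RPS26 (0.25) lie below members of like level.

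RPL19 and RPL23 lie near ERBB2 on the chromosome, and from cell to cell they were correlated with other ribosomal proteins more than with ERBB2. The r between RPL19 and ERBB2 was -0.15 with both drugs, -0.19 with neratinib, -0.26 with fulvestrant and -0.10 with DMSO. That between RPL19 and RPL23 was 0.66 with both drugs, 0.62 with neratinib, 0.72 with fulvestrant and 0.63 with DMSO, and that between RPL19 and RPS3, which lies on chromosome 11, was 0.74, 0.72, 0.74 and 0.64 in the same libraries. In the same order, r with ERBB2 was -0.27, -0.29, -0.29 and -0.19 for RPS3 and -0.17, -0.20, -0.27 and -0.13 for RPS2. A negative r with ERBB2 was thus not particular to the members near it. Whether gene copy number bears on the levels of RPL19 and RPL23 was not tested. Among 4850 genes outside the set, those most alike to the summed members across cells included EEF1A1 (mean r 0.80), RACK1 (0.72), TPT1 (0.72), NACA (0.68), FTL (0.66), FTH1 (0.65), BTF3 (0.52), EEF1B2 (0.49) and ZFAS1 (0.47). The median over those 4850 genes was -0.01.

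The combination was set against the single drugs by the departure from additivity, the log2 value of both drugs minus those of fulvestrant and neratinib plus that of DMSO. RPL22L1 had the highest departure, 0.25, and RPL7L1 the next, 0.18, so that with both drugs they were less low than the single drugs would add up to. The lowest were RPS10 at -0.16 and RPL39L at -0.12. With 1 library per group these departures have no error beyond counting and were not tested.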

How the data were processed

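The authors deposited 1 merged matrix of unfiltered UMI counts for the 4 libraries (10x Genomics 3′ v3). Per the submitters' processing notes they came from Cell Ranger 3.1.0. The notes name hg19, while 33113 gene identifiers matched the GRCh38 gene table, so the coordinates printed are those of transcript starts in RefSeq GRCh38.p14 and none comes from the authors' files. Barcodes were assigned to libraries by the number that ends them, matched to the number opening each sample title. Cells had at least 5000 UMIs and 500 genes; doublets were not removed. Counts were summed over cells per library and scaled to CPM (scanpy 1.11.5, scipy 1.17.1). Pairs were compared by log2 ratio with an exact conditional binomial 95% interval, which covers counting error only. The calls were run on simulated counts drawn with counting noise alone. That run cannot speak to variation between cells or cultures, or to shifts in composition. With 1 library per group there was no test across all genes. Members and lists were chosen with earlier results of these data known. Named were the paralogs and parents, members with set roles, the 4 highest and lowest per pair, the 3 highest and lowest in level and in correlation, called members, and the 10 most alike genes, of which some items are not reported here; EEF2, RRS1 and a few further members were named after their values were seen. Alternatives covered scaling, filters, cell choice, thinning to 5000 UMIs and the fold.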

Additional observations from a re-analysis of the deposited data

Results flagged for a closer look

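With 1 library per group, opposite signs of a drug's ratio in its 2 pairs, with both counting intervals off 0, were found for 7 of the named members with fulvestrant and 4 with neratinib. None of these differences was tested, all are below 1.1-fold, and the signs of the neratinib pairs move with the scaling. For fulvestrant, the log2 ratios are given for both drugs over neratinib and then for fulvestrant over DMSO. RPL7L1 was at 0.075 and -0.101, RPL39L at -0.087 and 0.036, RPS20 at 0.057 and -0.021, and RPL23 at 0.051 and -0.031. RPS3 was at -0.020 and 0.018, RPL5 at -0.017 and 0.015, and RPL10 at -0.011 and 0.012. For neratinib, they are given for both drugs over fulvestrant and then for neratinib over DMSO. RPL23 was at 0.012 and -0.070, RPS20 at 0.021 and -0.057, RPS21 at 0.033 and -0.034, and RPS15A at 0.017 and -0.014.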

How the results depend on the processing

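The summed member ratio kept its sign in all 5 pairs under every alternative run. Values are given in the order neratinib over DMSO, both over fulvestrant, fulvestrant over DMSO, both over neratinib and both over DMSO, with pairs within the counting interval of the reported value left out. Without mitochondrial UMIs it was 0.17, 0.17, -0.0091 (fulvestrant over DMSO) and 0.16 (both over DMSO). Without mitochondrial and member UMIs in the total it was 0.23, 0.23, -0.012, -0.015 and 0.22. Scaled to the median gene it was 0.25, 0.25, -0.023 (both over neratinib) and 0.23. With at most 20% mitochondrial UMIs it was 0.10, 0.11, -0.017 and 0.092 (both over DMSO), and with at least 10000 UMIs 0.085, 0.094, -0.019 and 0.074. In G1 cells it was 0.066, 0.065, -0.027, -0.028 and 0.038, and with cells thinned to 5000 UMIs 0.084, 0.10, -0.030, -0.014 and 0.071. Leaving out the 5% of cells with most UMIs gave -0.021 for fulvestrant over DMSO. Further sums were added after the data were seen: without RPL19 (0.10 for both over fulvestrant, -0.025 for fulvestrant over DMSO, -0.0088 for both over neratinib, 0.078 for both over DMSO) and without the 7 paralogs (0.077 for both over DMSO). Members called higher were 2 (neratinib over DMSO, 17.2% of all genes) and 3 (both over DMSO, 18.8%) without mitochondrial UMIs. Without mitochondrial and member UMIs they were 8 (neratinib over DMSO, 20% of all genes), 3 (both over fulvestrant, 20.5%) and 6 (both over DMSO, 22.0%), and with the median gene 11, 4 and 8 (21.2%, 21.6% and 22.9%) in the same pairs. At 1.1-fold, 15 members were higher and 10 lower for neratinib over DMSO (20.6% and 50.2% of all genes), 17 and 6 for both over fulvestrant (21.5% and 49.1%), and 15 and 13 for both over DMSO (23.0% and 49.4%). There were 4 lower for fulvestrant over DMSO (6.91% of all genes) and 3 lower for both over neratinib (5.89%). RPS26 and RPL39L stayed past the size rule under all 9 alternatives in both neratinib pairs, and RPL22L1 in neratinib over DMSO. RPL22L1 in both over fulvestrant did so in 3 of 9 (-0.35 to -0.08), and RPL7L1 in neratinib over DMSO in 6 of 9 (-0.39 to -0.21). The causes were not tested. No paired analysis was possible because each group has 1 library, and for the same reason no library could be left out. The called members rest on at least 4132 UMIs in a library, and the error between cultures was not measured.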
